A study of Mus musculus with 4 samples.

Results

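AW112010 and Calhm6 are 2 genes whose RNA was higher in colonic monocytes and macrophages of mice on a high-fat diet (HFD). They were chosen by that difference, as 2 of the 11820 genes counted, so the comparison of diets is given for them as a description with no test. Comparisons between kinds of cells within a diet are tested, since the choice was made by diet, although it was made with earlier results of these data known. The control group was 2 chow-fed mice (replicates 9 and 11), and the HFD group was 2 mice (replicates 1 and 3) given a coconut-based HFD, labelled 60%, for 1 week. All 4 were male C57/Bl6N mice, 6 to 7 weeks old when the diets began and housed free of specific pathogens. From each colon lamina propria, live CD45+ Lin- CD11b+ CD24- cells with CD64 or Ly6C were sorted and captured in droplets, in which every RNA molecule is tagged with a unique molecular identifier (UMI). Each mouse was 1 library, so a difference between diets rests on n = 2 against n = 2, and differences between libraries cannot be told apart from differences between mice.

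Monocytes that carry Ly6C enter the gut wall from blood, gain MHC class II and, as they lose Ly6C, mature into macrophages that make the complement protein C1q. Interferon-gamma, released mainly by T cells and innate lymphoid cells, induces the transcription factor IRF1 in these cells and turns on chemokines such as Cxcl9, which attracts T cells, and guanylate-binding proteins such as Gbp2, which act against intracellular microbes. AW112010 is annotated as a long non-coding RNA, and in macrophages it is also known to be translated from a non-canonical reading frame and to take part in inflammatory responses. Calhm6, formerly Fam26f, encodes a member of the calcium homeostasis modulator family of large-pore channels and is found in activated macrophages.

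AW112010 (ENSMUSG00000075010) lies on the minus strand at chr19:11047612-11055808 and Calhm6 (ENSMUSG00000046031) on the minus strand at chr10:34126067-34127984, both in GRCm38 with the GENCODE M21 annotation. Promoters are shown because the 2 genes were chosen as a pair that is higher on the same diet. Each runs from 250 bases before to 50 bases after the RefSeq start in GRCm38.p6, on the gene's own strand, and both genes had an entry. Capitals mark matches to the motifs named after the sequences.
AW112010, chr19:11050517-11050816, minus strand: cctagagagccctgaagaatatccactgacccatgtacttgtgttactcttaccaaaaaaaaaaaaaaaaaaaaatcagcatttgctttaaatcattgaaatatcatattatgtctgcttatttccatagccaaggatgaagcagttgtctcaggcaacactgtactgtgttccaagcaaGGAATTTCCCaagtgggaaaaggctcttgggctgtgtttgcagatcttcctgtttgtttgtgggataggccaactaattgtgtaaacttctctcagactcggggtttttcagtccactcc
Calhm6, chr10:34127923-34128222, minus strand: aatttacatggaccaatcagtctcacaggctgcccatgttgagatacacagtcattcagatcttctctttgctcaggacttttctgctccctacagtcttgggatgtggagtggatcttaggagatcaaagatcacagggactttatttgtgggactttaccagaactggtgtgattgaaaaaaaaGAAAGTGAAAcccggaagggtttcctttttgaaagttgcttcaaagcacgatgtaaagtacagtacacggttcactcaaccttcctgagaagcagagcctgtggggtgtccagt

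The motifs were searched on both strands. The core of the interferon-stimulated response element, spelled GAAA, any 2 bases and GAAA, matched the Calhm6 promoter at GAAAGTGAAA, 64 bases before the start, and the Gbp2 promoter 59 bases before the start, and it matched neither AW112010 nor Cxcl9. It was present in 1131 of 32851 mouse promoters of the same length (3.44%). The gamma-activated sequence, TTC, any 3 bases and GAA, matched neither gene of the pair and was present in 8.3% of promoters. The kB element bound by NF-kB, spelled GGGA, any 2 bases and TTCC, matched AW112010 at GGAATTTCCC on the opposite strand, 70 bases before the start, and Gbp2 at GGAACTTCCC, from 7 bases after the start. It was present in 1.47% of promoters. This last motif was added after the AW112010 sequence had been read. The longest GENCODE model of AW112010 begins at position 11055808, upstream of the RefSeq start used here, so the window shown lies inside the span of that model.

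The deposited counts held 5420 cells. Depth was 3832283 UMIs in 904 cells of chow replicate 9, 7947893 in 2002 cells of chow replicate 11, 3824228 in 966 cells of HFD replicate 1 and 5584175 in 1548 cells of HFD replicate 3. Levels are given in CPM, a gene's UMIs over all UMIs of the same cells of a mouse, scaled so that 10000 CPM is 1% of the UMIs. Pairs of libraries shared 2 to 6 cell barcodes, 23 in all. Ptprc, Csf1r, Cd68, Fcgr1, which encodes CD64, and Lyz2 were present in every mouse, with Csf1r at 552 to 880.2 CPM, whereas Itgam, which encodes the CD11b of the sort, was at 0.895 to 2.88 CPM. Cells were divided into gates by Ly6c2 (at least 1 UMI), by the summed share of H2-Aa, H2-Ab1 and H2-Eb1 (MHC II, threshold 14212 CPM) and by that of C1qa, C1qb and C1qc (threshold 2295 CPM). Cells above the C1q threshold formed the C1q-high gate whatever their Ly6c2 and MHC II, and the other gates hold cells below it. No gate uses AW112010 or Calhm6. C1q-high cells made up 84.5% and 92.5% of the cells in the chow mice and 47.6% and 42.3% in the HFD mice, and Ly6c2+ MHC II-low cells, the least mature, made up 7.3% and 3.4% against 29.1% and 21.4%. A gate was fitted where each mouse gave 20 cells or more, which left out Ly6c2+ MHC II-high cells (3 and 18 cells in chow). Both genes passed the filter on low counts in the 3 fitted gates and in the fit across gates.

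AW112010 was high in mature cells on either diet and 3.16-fold to 3.69-fold higher on HFD in the gates that were fitted. Over all cells it stood at 425 and 592 CPM in the chow mice and at 1379 and 1596 CPM in the HFD mice. In Ly6c2+ MHC II-low cells the chow mice held 134 and 211 CPM and the HFD mice 527 and 561 CPM. In Ly6c2- MHC II-high cells the chow values were 375 and 417 CPM, and those on HFD were 1338 and 1465 CPM. The diets did not overlap in either gate. In C1q-high cells AW112010 stood at 455 and 610.2 CPM with chow, whereas the HFD mice held 1881 and 2051 CPM, again without overlap. The fitted log2 fold change of HFD over chow (edgeR, SE, n = 2 mice per diet) was 1.54 ± 0.24 in Ly6c2+ MHC II-low cells, 1.80 ± 0.27 in Ly6c2- MHC II-high cells and 1.74 ± 0.16 in C1q-high cells.

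Ranked by mean level on HFD, AW112010 was highest in C1q-high cells (1966 ± 120.3 CPM, SD, n = 2), followed by Ly6c2+ MHC II-high cells (1578 ± 66.2), Ly6c2- MHC II-high cells (1401 ± 89.5), the remaining Ly6c2- MHC II-low cells (580.2 ± 324) and Ly6c2+ MHC II-low cells (544 ± 24.2). The last 2 overlapped between mice and the others did not. On chow the order began with Ly6c2+ MHC II-high cells (605 ± 126, from 21 cells) and C1q-high cells (532 ± 110), which overlapped, and went on with Ly6c2- MHC II-high cells (396 ± 29.5), Ly6c2+ MHC II-low cells (172 ± 54.5) and the remaining cells (67 ± 6.97), which did not overlap with one another.

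On chow Calhm6 was low, with like levels in the least and the most mature gate, and on HFD it was highest in the immature gates. Over all cells it was at 66.5 and 60.4 CPM in the chow mice and at 378 CPM in both HFD mice. Ly6c2+ MHC II-low cells held 67 and 59.6 CPM in the chow mice, against 653 and 683 CPM in the HFD mice. C1q-high cells held 67.7 and 59.8 CPM in the chow mice, against 249 and 266 CPM in the HFD mice. On chow, where the immature gate held 14 and 13 UMIs of Calhm6, the 2 gates were thus near the same level in each mouse, while on HFD the immature gate stood above the mature one in both mice. The fitted log2 fold change of HFD over chow was 3.28 ± 0.26 in Ly6c2+ MHC II-low cells and 1.87 ± 0.15 in C1q-high cells (edgeR, SE, n = 2 mice per diet).

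In Ly6c2- MHC II-high cells, Calhm6 had 0 UMIs in the 25 cells of chow replicate 9, which allows up to 51.2 CPM by the exact Poisson 95% interval, and 2 UMIs in the 26 cells of chow replicate 11. The HFD mice held 218 and 300.0 CPM there. From 229 UMIs on HFD against 2 on chow, the ratio of the pooled cells was 17.9, with an exact 95% interval of 4.9 to 149 that covers counting error only. The fitted log2 value of 4.06 ± 0.67 for this gate rests on the same 2 UMIs. In Ly6c2+ MHC II-high cells the HFD mice held 320 and 362 CPM, and the 21 chow cells held 5 UMIs in all, a ratio of 4.45 (1.89 to 13.8). Ranked by mean on HFD, the remaining Ly6c2- MHC II-low cells (741 ± 208 CPM, SD, n = 2) and Ly6c2+ MHC II-low cells (668 ± 21.7) overlapped, Ly6c2+ MHC II-high cells followed (341 ± 30), and Ly6c2- MHC II-high cells (259 ± 58.1) overlapped with C1q-high cells (257 ± 12).

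**Figure D1:**
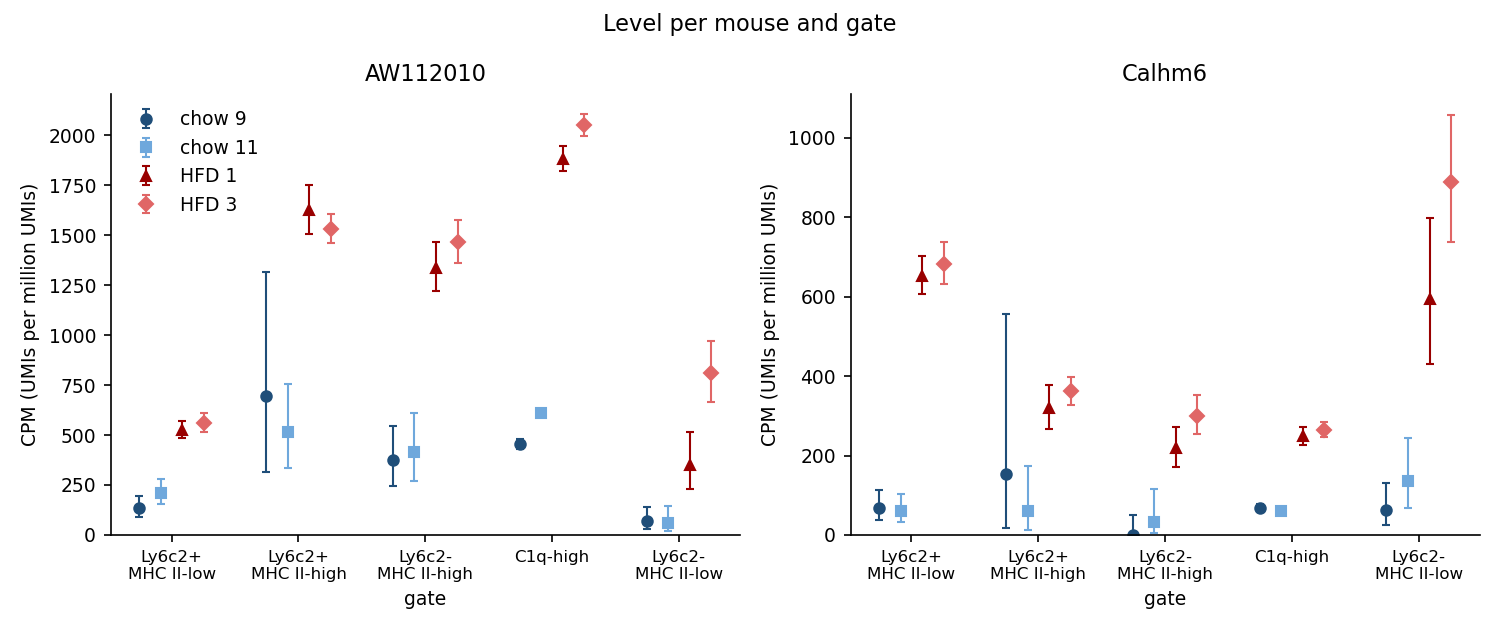
CPM of AW112010 (left) and Calhm6 (right) in each of 5 gates (x axis), 1 point per mouse with its exact Poisson 95% interval. AW112010 on HFD is highest in C1q-high cells (1881 and 2051 CPM), whereas Calhm6 on HFD is higher in Ly6c2+ MHC II-low cells (653 and 683 CPM) than in C1q-high cells (249 and 266 CPM).

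To count cells rather than molecules, each cell was thinned to 1500 UMIs, which left out 60, 200, 124 and 201 shallower cells of chow replicates 9 and 11 and HFD replicates 1 and 3. AW112010 was then detected in 36.8% and 47.5% of C1q-high cells on chow and in 72.3% and 79.9% on HFD (unthinned 57.2% and 65.3%, and 81.5% and 91.5%). Calhm6 was detected in 8.2% and 3.03% of Ly6c2+ MHC II-low cells on chow and in 44.8% and 49.3% on HFD (unthinned 12.1% and 4.41%, and 60.5% and 57.4%). In C1q-high cells it was detected in 8.03% and 6.43% on chow and in 22.4% and 25.9% on HFD (unthinned 14.8% and 15.2%, and 35.7% and 42.9%). Positive cells also held more molecules on HFD. In thinned C1q-high cells with AW112010 the mean was 1.78 and 1.84 UMIs on chow and 3.64 and 3.87 on HFD. The sort holds no cell type known to lack these genes, so the part of the basal level that RNA free in the droplets carries was not tested.

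Since the share of C1q-high cells differed between diets, the levels were also averaged over gates. With the 3 fitted gates weighted equally, HFD over chow was 3.55-fold for AW112010 and 8.28-fold for Calhm6, against 2.93-fold and 5.96-fold over all cells. Both differences were thus larger with these weights than over all cells. The chow average of Calhm6 includes Ly6c2- MHC II-high cells, at only 0 and 32.05 CPM. Ly6c2+ MHC II-high cells, left out of the average, showed 2.61-fold for AW112010 and 3.19-fold for Calhm6.

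The levels were then followed along Ly6c2, MHC II and C1q, each mouse alone. AW112010 was lower at higher Ly6c2 in all 4 mice. From cells without a Ly6c2 UMI to cells with 1000 CPM of Ly6c2 or more it went from 447 to 135 CPM in chow replicate 9 and from 606 to 266 CPM in chow replicate 11. In the HFD mice it went from 1624 to 785 CPM and from 1937 to 1174 CPM. Cells were then split into 4 bins by the quartiles of MHC II over all mice weighted equally. From bin 1 to bin 4 AW112010 went from 104 to 547 CPM and from 180.2 to 688 CPM on chow, and from 596 to 1547 CPM and from 731 to 1892 CPM on HFD. On HFD it was already at 1812 and 1823 CPM in bin 2 and was highest in bin 3, at 1964 and 1967 CPM. With every cell at 1500 UMIs, bin 3 stood above bin 2 in HFD replicate 3 only (2036 against 1872 CPM). In HFD replicate 1 these bins were level, at 1832 and 1833 CPM. On chow it was highest in bin 4 in both mice, although with every cell at 1500 UMIs it was highest in bin 3 in both (509 and 651 CPM, against 464 and 618 CPM in bin 4). HFD over chow was accordingly 4.67-fold in bin 1 of MHC II and 2.79-fold in bin 4.

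Calhm6 on chow was somewhat higher in bin 4 than in bin 1 of MHC II, though the exact Poisson 95% intervals overlapped in both mice. It was at 46.7 and 51.1 CPM in bin 1, at 50.7 and 34.3 CPM in bin 2, at 72.3 and 61.8 CPM in bin 3 and at 77.2 and 72.1 CPM in bin 4. With every cell at 1500 UMIs, bin 1 held 53.9 and 35.1 CPM and bin 4 held 66 and 56.1 CPM. Chow replicate 9 was then highest in bin 3, at 87.9 CPM. On HFD the gradient ran the other way, from 631 and 657 CPM in bin 1 to 188 and 193 CPM in bin 4. HFD over chow was smaller at each step, from 13.2-fold through 7.6-fold and 3.66-fold to 2.55-fold. Along C1q it went from 8.62-fold in bin 1 to 3.08-fold in bin 4. Along Ly6c2 it went from 4.12-fold in cells without a UMI to 7.96-fold and then to 12.5-fold in cells with 1000 CPM or more, where the chow mice held only 8 and 6 UMIs of Calhm6. With every cell at 1500 UMIs, the log2 fold in the last minus the first bin of Ly6c2 was 0.88 instead of 1.60 for Calhm6, and along C1q it was -0.01 instead of -0.35 for AW112010.

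**Figure D2:**
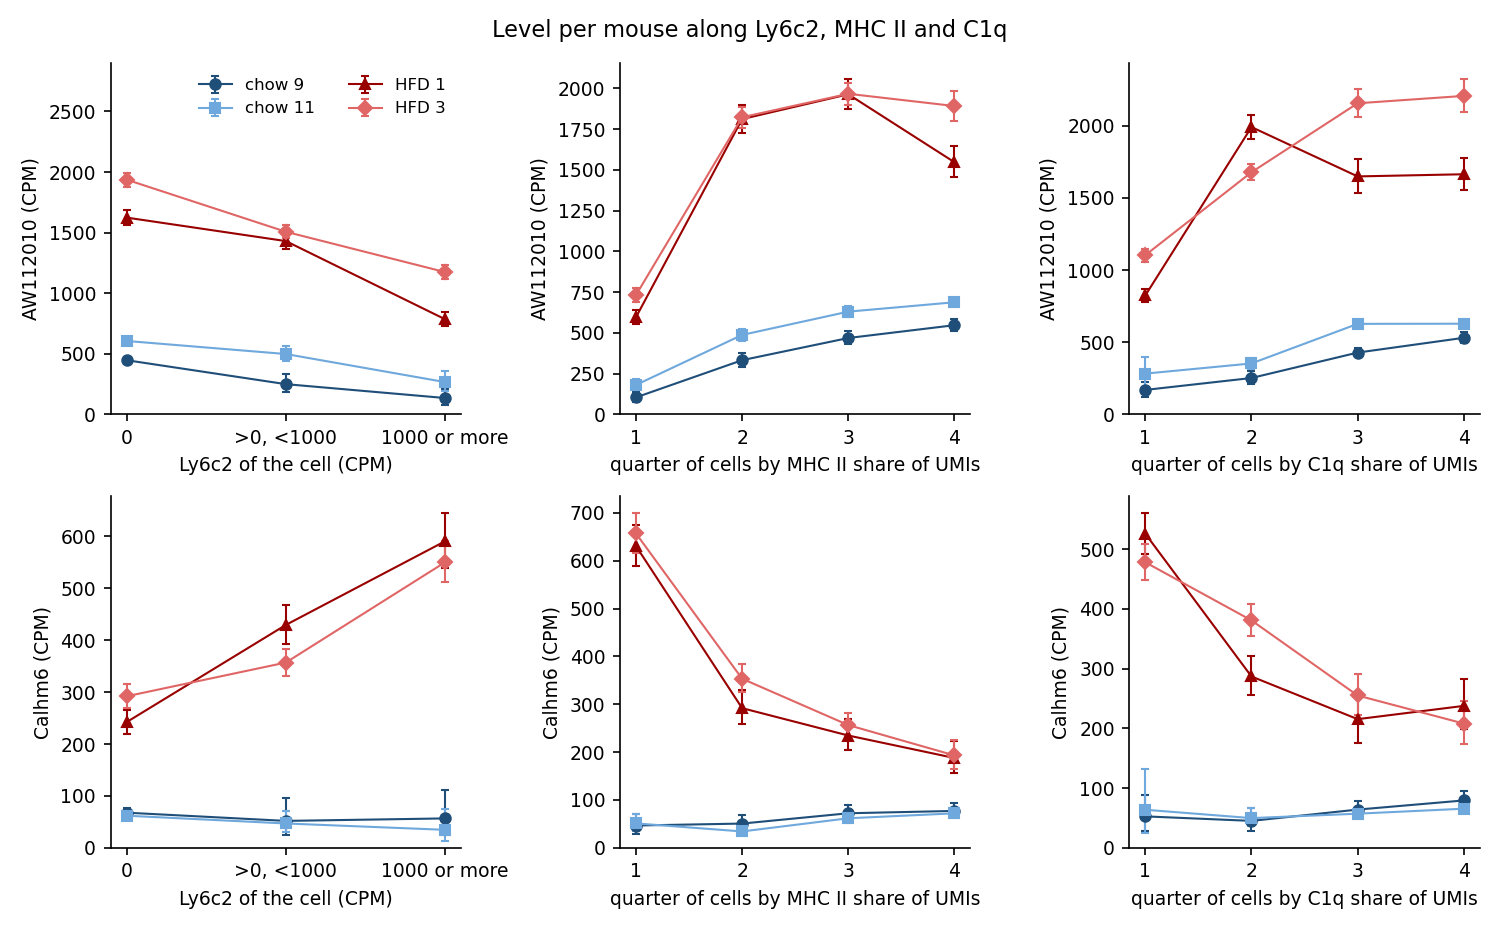
CPM of AW112010 (upper row) and Calhm6 (lower row) against Ly6c2 in 3 bins and against MHC II and C1q share of UMIs in 4 bins each, 1 line per mouse with exact Poisson 95% intervals. On HFD, AW112010 is lowest in bin 1 of MHC II and highest in bin 3, while Calhm6 goes from 631 and 657 CPM to 188 and 193 CPM.

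The comparison of C1q-high with Ly6c2+ MHC II-low cells was tested within mice, in a fit of all 5521 genes that passed the filter, and genes past a false discovery rate of 1% were called. AW112010 was higher in C1q-high cells on chow (log2 difference 1.86 ± 0.19, SE; edgeR quasi-likelihood test with Benjamini-Hochberg adjustment, adjusted p = 5.4e-10), in 2 of 2 mice. On chow 8.39% of all genes were called higher in C1q-high cells and 8.69% lower. On HFD the difference was 1.95 ± 0.14 (same edgeR test, adjusted p = 6.0e-14), again in 2 of 2 mice, where 8.68% of genes were called higher and 8.37% lower. The ratio of C1q-high to Ly6c2+ MHC II-low cells was 3.39 and 2.89 in the chow mice and 3.57 and 3.66 in the HFD mice. AW112010 thus differed between these gates by close to the same factor on either diet.

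For Calhm6 a difference between the gates was called on HFD and not on chow, where the immature gate held few UMIs of the gene. Each contrast is read alone, and the 2 calls together are no test of a difference between diets. On chow the log2 difference was 0.24 ± 0.31 (SE; edgeR with Benjamini-Hochberg adjustment, adjusted p = 0.62), and the ratios were 1.01 and 1.00 in the 2 mice. On HFD Calhm6 was lower in C1q-high cells by a log2 difference of -1.28 ± 0.16 (edgeR, adjusted p = 3.5e-08), with ratios of 0.381 and 0.389. Over the 17 alternatives the difference on chow ran from 0.01 with library size alone to 0.97 with the C1q threshold halved, and that on HFD from -1.38 to -1.19.

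How the diet effect differed between the gates is given without a test, since the genes were chosen by their diet effect. For Calhm6 the log2 fold change of HFD over chow was smaller in C1q-high than in Ly6c2+ MHC II-low cells by a fitted difference of -1.52 ± 0.33 (edgeR, SE), and by -2.23 to -1.27 over the alternatives. For AW112010 this difference was 0.09 ± 0.24, and it was negative with the MHC II threshold doubled, without cells holding a T, NK or ILC marker and without chow replicate 11.

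**Figure D3:**
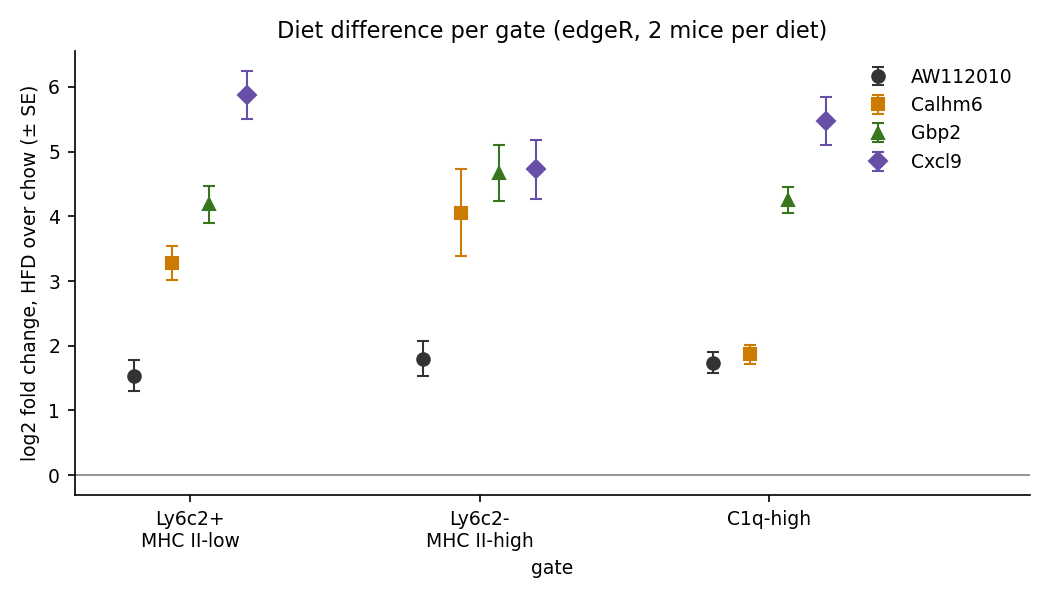
Fitted log2 fold change of HFD over chow (y axis, ± SE, 2 mice per diet) in 3 gates for AW112010, Calhm6, Gbp2 and Cxcl9. AW112010 lies between 1.54 and 1.80 in all 3 gates, and Calhm6 goes from 3.28 in Ly6c2+ MHC II-low cells to 1.87 in C1q-high cells; its middle value rests on 2 chow UMIs.

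Responses to interferon were read from lists of known target genes. Of 45 interferon-gamma response genes, 39 were in the table. The filter on low counts could be passed through the HFD mice alone. The Ly6c2+ MHC II-low gate held 612 HFD and 134 chow cells. Genes nearly absent on chow therefore passed more easily there than genes nearly absent on HFD. This can raise the medians and the counts of higher genes in the lists. In Ly6c2+ MHC II-low cells 14 of the 28 tested were called higher on HFD and none lower, with a median log2 fold change of 2.29 against -0.02 over all genes (edgeR, false discovery rate 1%), where 0.685% of all 4527 genes tested were called higher. The largest were Cxcl9 (5.88 ± 0.37, SE), Gbp5 (4.75 ± 0.61), which promotes inflammasome assembly, and Upp1 (4.65 ± 0.82), a uridine phosphorylase. In Ly6c2- MHC II-high cells 9 of 28 were called higher against 1.07% of all genes, and in C1q-high cells 15 of 23 against 5.35%, again with none lower. The total of called genes in C1q-high cells, 534, was 26 without HFD replicate 3 and 103 without HFD replicate 1. Calhm6 (3.28) lay above the list's median in the immature gate and in C1q-high cells (1.87, list median 1.48), and AW112010 lay below it in the former (1.54) and above it in the latter (1.74). In Ly6c2- MHC II-high cells (list median 1.93) AW112010 lay below it (1.80) and Calhm6 above it (4.06, from 2 chow UMIs). Both genes were chosen by their diet difference, so these positions are descriptions only.

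Genes that mark a type I interferon response were counted in the same way. In Ly6c2+ MHC II-low cells only 1 of 25 tested was called higher, Zbp1, a sensor of nucleic acids (1.48 ± 0.23, SE; edgeR adjusted p = 0.0013), against 0.685% of all genes. In Ly6c2- MHC II-high cells 4 of 17 were called higher, against 1.07%, and in C1q-high cells 7 of 16, against 5.35%. On both diets 17 of 25 were lower in C1q-high than in Ly6c2+ MHC II-low cells and none higher, where 8.69% of all genes on chow and 8.37% on HFD were lower. Among the genes of interferon receptors and signalling, Irf1, a transcription factor induced by interferon-gamma, was the only one of 11 called higher in Ly6c2+ MHC II-low cells (2.41 ± 0.25, SE; edgeR adjusted p = 1.5e-05). Ifngr1, a subunit of the interferon-gamma receptor, was -0.42 ± 0.19 there (adjusted p = 0.33). In C1q-high cells 1 of 11 was called higher, where 5.35% of all genes were, and 1 was called lower. The lower gene was Socs3, an inhibitor of cytokine signalling (-0.87 ± 0.13, SE, edgeR adjusted p = 0.003).

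The difference of the diet effect between gates was counted for the same lists. In the interferon-gamma list 2 of 30 had a smaller diet effect in C1q-high cells, Irf1 (interaction -2.15 ± 0.29, SE; edgeR adjusted p = 2.5e-06) and Gbp3 (-1.66 ± 0.28; adjusted p = 1.1e-04), and in the signalling list Socs3 went from 0.86 ± 0.19 in Ly6c2+ MHC II-low to -0.87 ± 0.13 in C1q-high cells (interaction -1.83 ± 0.21; edgeR adjusted p = 1.5e-07). Irf1 was at 523 and 583 CPM in Ly6c2+ MHC II-low cells of the HFD mice and at 164 and 148 CPM in their C1q-high cells, against 86.7 to 133 CPM in both gates of the chow mice. Like Calhm6, it was thus alike in these 2 gates on chow and higher in the immature gate on HFD. In C1q-high cells, however, HFD over chow was 1.42-fold for Irf1 and 4.03-fold for Calhm6. Of all genes, 0.543% were called with a lower diet log2 fold change there. In the type I list 5 of 25 had a higher diet log2 fold change in C1q-high cells, namely Ifitm3, Irf7, Zbp1, Ifit3 and Ifi27l2a, against 1.12% of all genes. Gbp3, Socs3 and the genes of this last group were named after their values had been seen.

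For Gbp2 and Cxcl9 no difference of the diet effect between gates was called. Gbp2 was lower in C1q-high than in Ly6c2+ MHC II-low cells on chow (-1.46 ± 0.30, SE; edgeR adjusted p = 2.4e-04) and on HFD (-1.48 ± 0.15; edgeR adjusted p = 3.3e-10), with an interaction of -0.02 ± 0.36 (edgeR adjusted p = 0.996). Cxcl9 had 2 and 3 UMIs in the Ly6c2+ MHC II-low cells of the chow mice, so its own interaction (-0.44 ± 0.76; edgeR adjusted p = 0.86) was not well determined.

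Other cells and released RNA were measured beside these levels. In C1q-high cells the monocyte genes Plac8 and Chil3 also stood higher on HFD, Plac8 at 1782 and 2310 CPM against 55.4 and 126 CPM on chow. Genes of resident macrophages were lower there on HFD, Adgre1 at 292 and 223 CPM against 692 and 691 CPM and Cx3cr1 at 197 and 146 CPM against 485 and 521 CPM, and Ccr2, a receptor of recruited monocytes, was higher, at 492 and 471 CPM against 231 and 284 CPM. These 3 genes were named after their values had been seen. In the HFD mice Plac8 in C1q-high cells came to 0.133 and 0.194 of its level in Ly6c2+ MHC II-low cells, and Chil3 to 0.0413 and 0.0685. Calhm6 came to 0.381 and 0.389, above both genes in each mouse, and Ccr2 to 0.438 and 0.516, above Calhm6. In the other direction, C1qa in Ly6c2+ MHC II-low cells came to 0.0171 to 0.0657 of its level in C1q-high cells over the 4 mice, and AW112010 came to 0.274 to 0.346. C1qa is part of the C1q threshold that separates these gates. Its ratio was therefore held low by the gating and is no measure of released RNA.

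**Figure D4:**
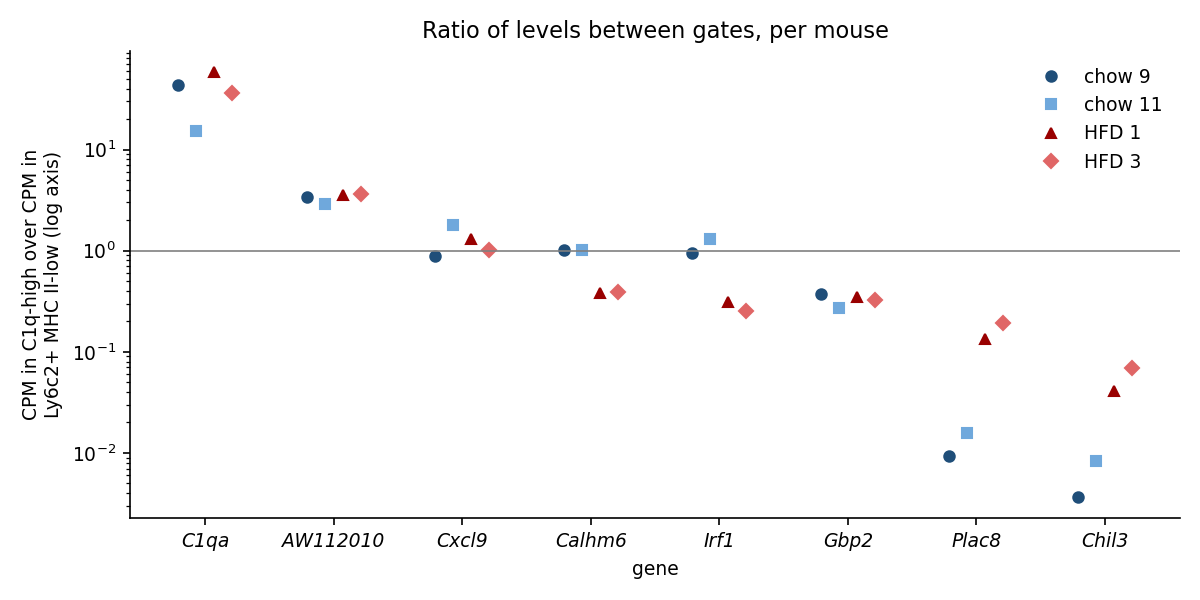
Ratio of CPM in C1q-high cells to CPM in Ly6c2+ MHC II-low cells (log y axis) for 8 genes, 1 point per mouse. The ratio of AW112010 is 2.89 to 3.66 in all 4 mice; that of Calhm6 is 1.01 and 1.00 on chow and 0.381 and 0.389 on HFD, above the monocyte genes Plac8 and Chil3.

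T cells and NK cells also express AW112010. The 18 markers of T, NK and innate lymphoid cells summed to 102 and 123 CPM on chow and to 529 and 645 CPM on HFD. On HFD most of this was Ccl5, a chemokine that activated macrophages make as well, at 434 and 545 CPM against 21.4 and 29.9 CPM on chow. On chow most of it was Il7r, an interleukin receptor subunit, at 64.5 and 68.7 CPM against 27.7 and 27.9 CPM on HFD. Among the other markers, Klrd1 was higher on HFD, at 53.3 and 28.7 CPM against 6.52 and 7.93 CPM on chow. Trac stood at 4.45 and 9.31 CPM on HFD against 1.83 and 1.76 CPM. Nkg7, Gzma and Gzmb were at 1.31 to 4.84 CPM on HFD against 0 to 0.252 CPM. Cd2 was lower, at 0.785 and 3.04 CPM on HFD against 3.65 and 8.05 CPM. Ncr1 had no UMI in any mouse, and Cd3e was at 0 to 0.537 CPM. Without the 1688 cells (31.1%) that held any of these markers, the log2 fold change of AW112010 was 1.43 in Ly6c2+ MHC II-low and 1.48 in C1q-high cells, and that of Calhm6 was 3.16 and 1.94.

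In the same libraries, 10 dendritic cell markers summed to 102 to 105 CPM on chow and 266 to 280 CPM on HFD. In the Ly6c2- MHC II-high gate of the HFD mice the dendritic cell markers came to 1151 and 815 CPM against 667 and 369 CPM on chow, and those of T, NK and innate lymphoid cells to 1581 and 736 CPM against 125 and 144 CPM. The 5 of 9 B and plasma cell markers in the table summed to 40872 and 27121 CPM in Ly6c2+ MHC II-low cells on chow against 8896 and 7106 CPM on HFD. In C1q-high cells they summed to 2987 and 3423 CPM on chow against 343 and 276 CPM on HFD. The 3 of 12 granulocyte and mast cell markers in the table summed to 3.9 to 35 CPM, and 9 of 10 epithelial and stromal markers to 33.4 to 173 CPM. The part of these cells in the levels of AW112010 and Calhm6 was not tested.

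Over single cells of the HFD mice, both genes went with Cxcl9, and Calhm6 also went with Gbp2, to a degree that depended on the gate. Correlations are given per mouse as descriptions on log2(1 + counts scaled to 10000 UMIs), since cells of 1 mouse share a library and their depth. For Calhm6 and Gbp2, Pearson's r was 0.349 over the 966 cells of HFD replicate 1 and 0.315 over the 1548 cells of HFD replicate 3, against 0.00602 and 0.0526 on chow. For Calhm6 and Cxcl9 it was 0.229 and 0.214 on HFD and 0.0588 and 0.07 on chow. For AW112010 and Cxcl9 it was 0.273 and 0.168 on HFD and 0.0785 and 0.068 on chow. For AW112010 and Gbp2 the HFD mice differed in sign (0.153 and -0.0507). Spearman's rho was near r in each case, at 0.337 and 0.299 for Calhm6 and Gbp2 on HFD. On chow few cells held Cxcl9, 10 and 30 thinned cells in the 2 mice, or Gbp2, 32 and 87, which limits what r can show there.

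The gates changed these values. Within Ly6c2+ MHC II-low cells of the HFD mice, r of Calhm6 reached 0.389 and 0.394 with Gbp2 and 0.343 and 0.378 with Cxcl9, while r of AW112010 was 0.183 and 0.17 with Cxcl9 and 0.294 and 0.179 with Gbp2. Within Ly6c2+ MHC II-high cells r of Calhm6 was only 0.000307 and 0.164 with Gbp2 and 0.00891 and 0.179 with Cxcl9. Within C1q-high cells r of Calhm6 with Gbp2 was 0.29 and 0.24. AW112010 and Calhm6 themselves had r of 0.0313 and -0.0681 over all cells of the HFD mice, 0.151 and 0.053 within their C1q-high cells, and 0.127 and 0.121 over the cells of the chow mice.

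At equal depth the genes were also compared in shares of cells. Among Ly6c2+ MHC II-low cells of the HFD mice, Calhm6 was detected in 57.9% and 58.7% of cells with a Gbp2 UMI and in 29.8% and 29.5% of cells without. With Cxcl9 the shares were 63.3% and 68.4% against 36.8% and 39.9%. AW112010 was detected in 47.1% and 40.3% of the cells with Gbp2 and in 35.5% and 32.6% of those without. With Cxcl9 the shares of AW112010 were 50.6% and 44.9% against 37.9% and 34.3%. In C1q-high cells both genes were found more often with Cxcl9 in both mice, Calhm6 by 10.9 and 6.86 percentage points and AW112010 by 10.5 and 6.37 points. In the same cells Calhm6 differed by 10.2 and 10.9 percentage points with Gbp2, and AW112010 by 7.71 and -3.25 points with that partner, so the latter changed sign between mice. The other 2 gates of the HFD mice were less even. There Calhm6 was found more often with Gbp2 in every case, by 3.01 to 22.5 points, but with Cxcl9 it differed by -3.95 and 13.1 points in Ly6c2+ MHC II-high and by 8.42 and -1.82 points in Ly6c2- MHC II-high cells. AW112010 differed there by 1.23 to 19 points with Cxcl9 and by -3.03 to 13 points with Gbp2.

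**Figure D5:**
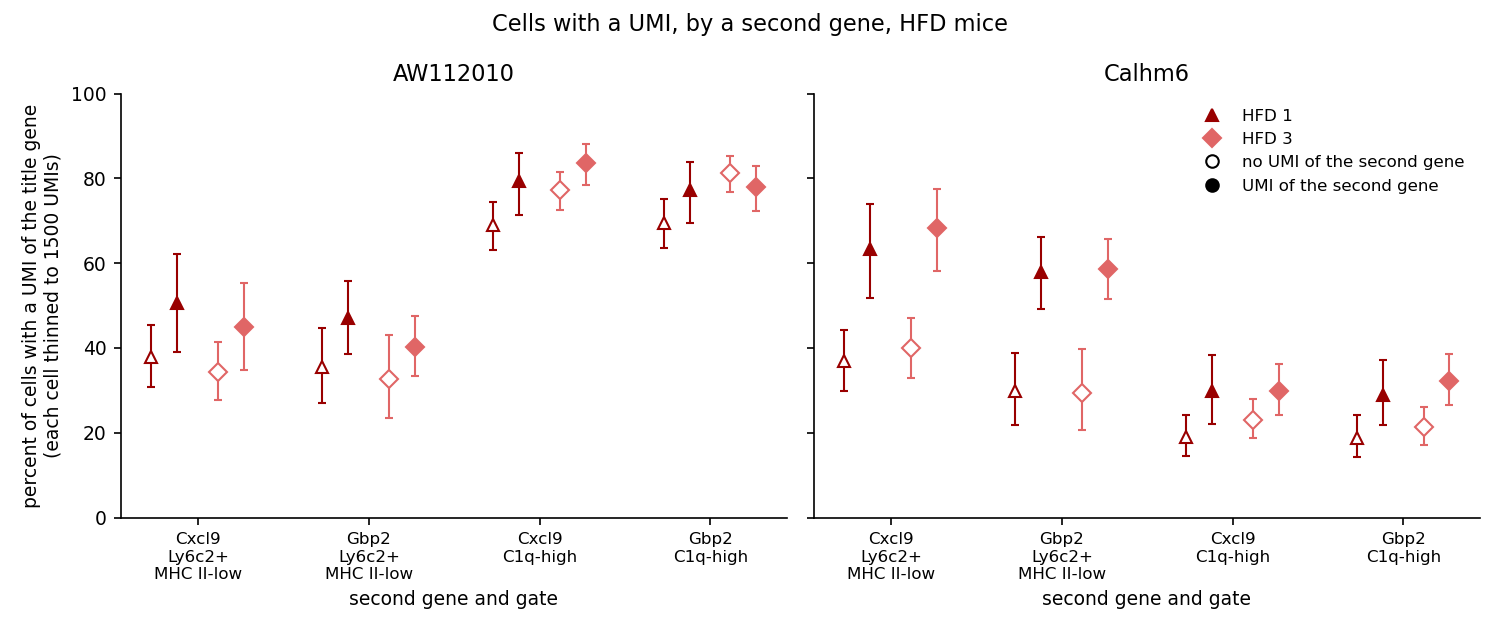
Percent of cells with a UMI of AW112010 (left) or Calhm6 (right) among cells without (open) and with (filled) a UMI of Cxcl9 or Gbp2, in 2 gates of the 2 HFD mice, each cell thinned to 1500 UMIs, with exact binomial 95% intervals. In Ly6c2+ MHC II-low cells Calhm6 is found in 57.9% and 58.7% of cells with Gbp2 and in 29.8% and 29.5% of cells without.

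The genes most like each member were read in 2 ways, over 14 sums of a mouse and gate, which share 4 libraries, and over the cells of the HFD mice, among 4947 genes. Over the sums, AW112010 was closest to Ndufa5 (r = 0.941), Ccl24 (0.913), Gbp8 (0.911), Ccl5 (0.902) and Ndufc2 (0.898). Over HFD cells its 5 closest genes were H2-Eb1 and H2-Ab1 (mean r 0.415 each), H2-Aa (0.407), Aif1 (0.385), which encodes the macrophage protein IBA1, and Cd74 (0.379), the MHC II invariant chain. H2-Aa, H2-Ab1 and H2-Eb1 were used for the gates. Cxcl9 took rank 29 and Gbp2 rank 789.

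Calhm6 was closest over the sums to Ppa1 (0.955), 2310009B15Rik (0.953), Prpf38a (0.952), Pla2g16 (0.948) and Fam174a (0.942). Over HFD cells Gbp2 was its closest gene (mean r 0.332), followed by Samhd1 (0.323), which restricts viral replication, Ifi204 (0.282), a sensor of DNA, the monocyte gene Plac8 (0.274) and Acod1 (0.255), which makes itaconate. Cxcl9 took rank 19. On chow none of these 5 genes reached an r of 0.07 with Calhm6 in either mouse. There Calhm6 was found in a mean of 7.07% of thinned cells and Gbp2 in 4.31%. Few positive cells thus limit what r can show on chow. For AW112010 the MHC II genes held r of 0.275 to 0.301 on chow as well.

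Within the channel family, Calhm2 was the only other gene in the table. It was low, at 13.5 to 41.3 CPM in Ly6c2+ MHC II-low cells and 15.6 to 26.7 CPM in C1q-high cells over the 4 mice. Its log2 fold change of HFD over chow was -1.07 ± 0.53 (SE; edgeR adjusted p = 0.40) in the former and -0.88 ± 0.23 (edgeR adjusted p = 0.028) in the latter, neither past 1%. Neighbouring genes on the chromosome were also read. Dse, 23409 bases from Calhm6, was lower on HFD in C1q-high cells, at 24.2 and 21.7 CPM against 54.3 and 64 CPM on chow, opposite to Calhm6, while in Ly6c2+ MHC II-low cells the diets overlapped, at 45 and 36.4 CPM on HFD against 23.9 and 36.7 CPM on chow. Ms4a8a, 11663 bases from AW112010, was at 153 and 156 CPM on chow against 136 and 173 CPM on HFD in Ly6c2+ MHC II-low cells, the fitted gate in which AW112010 was lowest, and it was higher on HFD in C1q-high cells, at 20.9 and 31 CPM against 5.25 and 7.56 CPM. The neighbours on the other side, Gm28347 of AW112010 and Calhm5 of Calhm6, were not in the table.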

How the data were processed

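As the labels and the study's methods state, reads of 10x Genomics 3' v2 libraries were pseudo-aligned to the mouse transcriptome of Ensembl release 97 (tools: bustools 0.39.2, kallisto 0.46.0). The authors removed poor cells, genes of low abundance and cells that matched no macrophage or monocyte reference, and the deposited values are raw UMI counts, not normalized. Of 11820 gene identifiers, 11819 matched GENCODE M21. Cell names gave the mouse.

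The 2 genes, the lists and the tests were chosen with earlier results of these data known. MHC II and C1q thresholds are Otsu thresholds on log10(CPM + 100), mice weighted equally. Counts were summed per mouse and gate and fitted in edgeR 4.0.16 (TMM scaling, quasi-likelihood test) for genes above 1 CPM in at least 2 sums and found in at least 5% of cells. Contrasts between gates had a term for each mouse. The test was checked on simulated data. Nothing in the labels gives a batch. Intervals of levels are exact Poisson and those of shares exact binomial, and both cover counting error only. P-values between diets measure the spread between 2 mice per diet. Those of contrasts between gates measure the spread left after the mouse terms, which is how gate differences vary among mice. Alternatives were DESeq2 1.42.0, library size alone, a likelihood-ratio test, no filter, other thresholds, leaving out doublets (38 cells, Scrublet in scanpy 1.11.5), shallow cells or cells with lymphoid markers, and leaving out each mouse. Leaving out only cells with a lymphoid marker other than Ccl5 (1020 cells) was added after the data had been seen.

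Named genes are the 2 members, Cxcl9, Gbp2, the 5 genes closest to each member, the 3 largest called genes of each list in Ly6c2+ MHC II-low cells, family members and chromosomal neighbours in the table.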

Additional observations from a re-analysis of the deposited data

Results flagged for a closer look

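The difference between diets in Calhm6 was not of the same size in both gates. The fitted difference of the diet effect, C1q-high minus Ly6c2+ MHC II-low cells, was -1.52 on the log2 scale (SE 0.33), from 653 and 683 CPM on HFD against 67 and 59.6 CPM on chow in the immature gate and 249 and 266 CPM against 67.7 and 59.8 CPM in the mature gate. The ratio of C1q-high to Ly6c2+ MHC II-low cells was lower in both HFD mice (0.381 and 0.389) than in both chow mice (1.01 and 1.00). Over the 17 alternatives the fitted difference ran from -2.23 to -1.27. Since Calhm6 was chosen for its diet effect, this difference is given as a description with no test.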

How the results depend on the processing

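The differences between C1q-high and Ly6c2+ MHC II-low cells within a diet kept their direction and their side of the 1% threshold for both genes in all 17 alternatives on each diet, and 79 of 97 alternative values of the diet log2 fold changes lay within the spread between mice. The cause of the following changes was not tested.

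The interaction (the diet effect in C1q-high minus that in Ly6c2+ MHC II-low cells) of AW112010 (0.09) became -0.22 with the MHC II threshold doubled, -0.011 without cells holding a T, NK or ILC marker and -0.053 without chow replicate 11, in a range of -0.053 to 0.21 with mice left out. That of Calhm6 (-1.52), also given without a test, was -1.45 with the MHC II threshold halved and -1.29 without cells holding a T, NK or ILC marker. It was -1.51 with DESeq2 and -1.54 to -1.50 with each mouse left out. Fits without a mouse left that diet 1 mouse, assumed to vary like the others.

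For AW112010 the diet log2 fold change was 1.91 in Ly6c2+ MHC II-low cells with the MHC II threshold doubled and 1.25 to 1.92 with mice left out. In Ly6c2- MHC II-high cells it was 1.93 with that threshold halved, 2.00 with the C1q threshold doubled and 2.10 with no filter, and in C1q-high cells 1.48 without cells holding a T, NK or ILC marker. For Calhm6 it was, in Ly6c2+ MHC II-low cells, 4.01 with the C1q threshold halved, 3.16 without cells holding such a marker, 3.18 without those holding one other than Ccl5, 3.40 with library size alone and 3.46 with no filter. In C1q-high cells it was 1.97 without cells holding a marker other than Ccl5, 2.02 with library size alone and 1.77 to 1.96 with mice left out. In Ly6c2- MHC II-high cells it was 2.97 without chow replicate 9 and had no value without chow replicate 11.

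Of genes called by diet, Ly6c2+ MHC II-low cells had 42, and 23 with Ly6c2+ set at 2 UMIs, 123 with no filter, 102 by likelihood ratio and 46 to 120 with mice left out. Ly6c2- MHC II-high cells had 99, and 55 with the MHC II threshold halved, 27 with 2 UMIs of Ly6c2, 35 with DESeq2 and 30 to 116 with mice left out. C1q-high cells had 534, and 916 with no filter, 924 by likelihood ratio and 26 (without HFD replicate 3) to 527 with mice left out. Between gates, 943 genes were called on chow (455 to 833 with mice left out) and 941 on HFD (610 with DESeq2, 372 to 998 with mice left out). The interaction was called for 92 genes, and for 46 with the C1q threshold halved, 44 without cells holding a T, NK or ILC marker, 155 by likelihood ratio and 39 to 72 with mice left out.

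Mean r over mice of AW112010 and Cxcl9 on chow (0.073) was 0.0541 with thinned cells and 0.054 within C1q-high cells, and that of AW112010 and Gbp2 on HFD (0.051) was 0.237 within Ly6c2+ MHC II-low and 0.196 within Ly6c2+ MHC II-high cells. For Calhm6 and Cxcl9 it was 0.0455 thinned and 0.0548 within C1q-high cells on chow (0.064 over all cells), and on HFD (0.222) 0.192 thinned, 0.36 within Ly6c2+ MHC II-low, 0.0939 within Ly6c2+ MHC II-high, 0.168 within Ly6c2- MHC II-high and 0.234 within C1q-high cells. For Calhm6 and Gbp2 it was -0.000799 thinned on chow (0.029), and on HFD (0.332) 0.285 thinned, 0.391 within Ly6c2+ MHC II-low, 0.082 within Ly6c2+ MHC II-high and 0.265 within C1q-high cells. With thinned counts the diet log2 fold change in the last minus the first bin was -0.009 for AW112010 along C1q, and for Calhm6 0.88 along Ly6c2, -2.12 along MHC II and -1.98 along C1q.

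Library size alone shifted the median of all genes by -0.23 between gates on chow and by 0.15 between diets in C1q-high cells. Ly6c2- MHC II-high cells could not be fitted with the C1q threshold halved, the MHC II threshold doubled, shallow cells left out or cells with lymphoid markers left out, where fewer than 20 cells remained in a mouse. No paired analysis was possible because the diets share no replicate number. With 0 to 14 UMIs of Calhm6 per chow mouse in each gate other than C1q-high, depth limits its basal levels there.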
